A study of Mus musculus with 12 samples.

Results

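Forkhead (Fox) proteins are transcription factors that bind DNA through a shared winged-helix fold, the forkhead domain, and are named by subfamily letter. FoxO proteins respond to insulin and growth factor signalling: phosphorylation by Akt sends them out of the nucleus, and without it they act on genes of metabolism, stress resistance and the cell cycle. Other members direct organ formation, such as FoxA in endoderm and Foxn1 in the thymic epithelium, and several FoxP members recruit corepressors. Here the forkhead genes were followed through ORFtag screens in mouse embryonic stem (mES) cells, which ask whether a protein changes a reporter gene once it is brought to it. Members were all genes whose symbol was Fox followed by a subfamily letter from a to s and a number, which gave 31 of the 20409 genes in the deposited tables.

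In ORFtag, a retroviral cassette with a promoter, a selection gene, a tag and a splice donor inserts into the genome, and the downstream exons of the gene it enters are expressed as a fusion to the tag. The activator line was clonal and carried 7 TetO sites before a minimal promoter from the human MYLPF gene (7xTetO-pMYLPF-Puro-IRES-GFP). The repressor line, also clonal, carried 7 TetO sites beside an active Pgk promoter (pEF1-BFP-7xTetO-pPGK-Puro-IRES-GFP); both received cassettes with the TetR DNA-binding domain and were sorted for GFP-positive and GFP-negative cells, respectively. The clonal PTGR line (post-transcriptional gene regulation) carried Puro-IRES-GFP with 10 boxB sites in its mRNA and received the RNA-binding peptide λN, and its cells were sorted repeatedly for low GFP, treated with 4-hydroxytamoxifen so that Cre removed the boxB sites, and sorted once more for regained GFP. Each screen had 2 replicates of sorted and 2 of unsorted cells, 12 libraries in all. The libraries are insertion sites in genomic DNA, so the cell type could not be checked against marker genes and is given as labelled.

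Each unique position on the strand of the gene, at most 200 kb from the exon it was assigned to, counted as 1 sense insertion. Sorted libraries held 14705 to 60980 such insertions and unsorted libraries 54088 to 233799, and the 6 unsorted libraries summed to a background of 1022126. Rates are insertions per 10000 insertions of a library, and the depth limits what a sorted library can show: 0 insertions in both activator sorted libraries allowed a rate of up to 0.935 per 10000 (3 counts). Intervals, limits and standard errors (SE) cover counting error only, because dividing cells and PCR copies are not independent events. A gene was called enriched when the summed sorted libraries exceeded the background in Fisher's exact test (one-sided), with a Benjamini-Hochberg adjusted p under 0.001 over all genes with at least 3 sorted insertions, and when its log2 odds ratio reached 1. That test ignores the spread between replicates, so the quasi-likelihood test of edgeR within each screen (2 sorted against 2 unsorted libraries) is given beside it, with p-values that measure only the spread between these libraries.

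The splice acceptors that the sorted insertions pointed to are shown because they set which piece of each protein could join the tag. Each line holds 15 intron bases in lower case and the first 15 exon bases in capitals, 5′ to 3′ on the strand of the gene, from the RefSeq genome GRCm38.p6 (mm10). The first 5 belong to FoxO genes and the others to the FoxJ and FoxN genes enriched in the same screen.
Foxo1 exon 2, chr3:52345024-52345053, plus strand: tgttttgctttgcagAATTCAATTCGCCAC
Foxo3 exon 3, chr10:42197887-42197916, minus strand: tctctttctccacagAACTCCATCCGGCAC
Foxo4 exon 2, chrX:101258162-101258191, plus strand: ctctctcccatccagAACTCCATCCGTCAC
Foxo6 exon 2, chr4:120269168-120269197, minus strand: tatttccggccacagAACTCCATTCGGCAC
Foxo3 exon 3 of the short transcript Foxo3-202, chr10:42247772-42247801, minus strand: tcttctatcttacagCTTTCTGAACTCAAA
Foxj2 exon 2, chr6:122820688-122820717, plus strand: tcctggctgggagagGCTCCTCCCCTCCTC
Foxj3 exon 2, chr4:119543433-119543462, plus strand: atgatgtttgtgcagGAATAGTAACCCTGA
Foxn1 exon 4, chr11:78368806-78368835, minus strand: tttccacttttccagCAGGGGTCAGAGGTC
Foxn4 exon 3, chr5:114263140-114263169, minus strand: tggtttttggaacagGTTTCTGCCTCCCGT

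The first 4 FoxO acceptors opened onto a similar start of the exon: 11 of the 15 exon bases were identical in Foxo1, Foxo3, Foxo4 and Foxo6. The second Foxo3 exon shared 4 of 15 with the other Foxo3 exon. In all 13 acceptors extracted, including 4 not printed, the intron ended in ag.

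Without selection, the cassette reached every forkhead gene in the tables. Genes without introns had no acceptor to be assigned to. Subfamilies with no gene in the deposited tables that matched the rule, such as FoxC and FoxD, were not analysed here. All 31 members had at least 1 background insertion, against 89.5% of all genes, and 29 had at least 3. The median was 42 insertions per member and 15 per gene over all genes. Foxj2 had the most, 473, followed by Foxp4 with 210 and Foxn3 with 191, and Foxi1 had 1. These counts set how well each member could be assessed: Foxi1, Foxf2 (2 insertions) and Foxi3 (4) offered almost no background to compare with.

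In the activator screen, forkhead genes took up a far larger part of the sorted insertions than of the unsorted ones. The 31 members held 2.56% of the insertions in sorted replicate 1 (95% Wilson interval 2.34 to 2.81%) and 6.29% in sorted replicate 2 (5.91 to 6.69%), against 0.202% to 0.277% in the 6 unsorted libraries. Both sorted libraries lay above every unsorted one. At the background rate 74 sorted insertions would have fallen on the members, and 1371 were found. In the repressor screen the members held 0.135% and 0.0921% of the sorted insertions, and in the PTGR screen 0.233% and 0.195%.

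Of the 31 members, 8 were called in the activator screen: Foxo1, Foxo3, Foxo4 and Foxo6, which are all the FoxO members, Foxj2 and Foxj3, and Foxn1 and Foxn4. Over all 20409 genes 132 were called, which was 4.64% of the 2842 tested. The 8 were also the only members with 3 or more sorted insertions, so each passed this filter through its sorted count, and the count of 8 is read against all 31. Of the other members, 12 had 1 or 2 sorted insertions and 11 had 0. By edgeR, 8 of 19 members fitted were higher in sorted cells at an adjusted p below 0.05 and a log2 fold change of at least 1, against 1.54% of all 8000 genes fitted, and they were the same 8. The Fisher p-values of Foxj2 and Foxo6 were too small for the computation to hold and are not printed. With the replicate number as a block, edgeR called 8 members and 1.25% of all genes, and DESeq2 called 8 members and 1.32%.

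**Figure D1:**
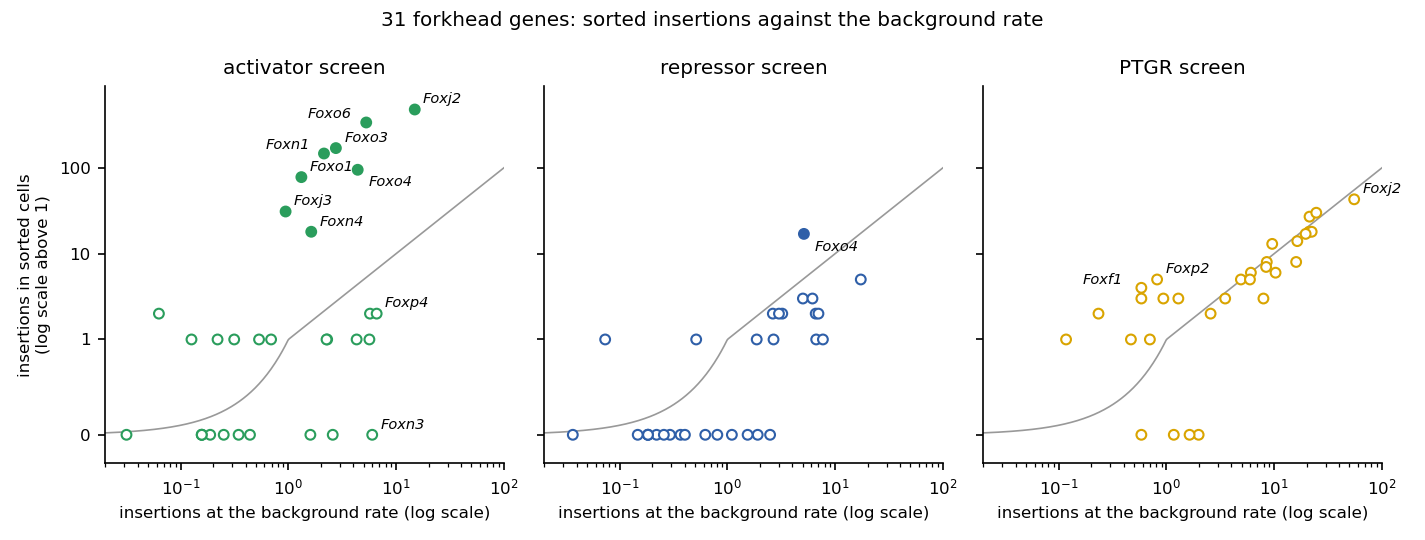
Sense insertions in both sorted libraries of a screen (y axis, log scale above 1) against the number that the background rate would give at the same depth (x axis, log scale) for each of the 31 forkhead genes. Filled points were called, and the grey line marks equal numbers. In the activator panel 8 genes lie far above the line and Foxn3 lies at 0, while most PTGR points with over 3 insertions lie near the line.

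The FoxO genes held the most members called. Foxo6, a FoxO protein best known from the brain, lies at chr4:120267079-120287349 (GRCm38, minus strand) and had 71 and 267 insertions in the activator sorted libraries, with 23 and 69 in the unsorted libraries of the screen. Its rates of 40.8 and 182 per 10000 (111 ± 99.5, SD, n = 2) lay above all 6 unsorted libraries (1.57 ± 0.889, SD, n = 6), with no overlap. This gave a log2 odds ratio of 6.02 ± 0.14 (SE), and edgeR gave a log2 fold change of 5.58 (adjusted p = 1.96e-10). In the repressor screen Foxo6 had 2 and 1 sorted against 28 and 18 unsorted insertions. In the PTGR screen it had 10 and 7 against 24 and 6.

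Foxo3, a widely expressed FoxO factor tied to stress resistance and to the upkeep of resting ovarian follicles, lies at chr10:42181841-42276755 (minus strand). It had 41 and 129 activator sorted insertions against 14 and 31 unsorted. Rates were 23.6 and 87.7 per 10000 (55.6 ± 45.4, SD, n = 2), and the background mean was 0.805 ± 0.374 (SD, n = 6). The sorted libraries were both above all unsorted ones. Foxo3 had a log2 odds ratio of 5.95 ± 0.19 (Fisher's exact test, adjusted p = 5.05e-187) and an edgeR log2 fold change of 5.56 (adjusted p = 3.74e-25). In the repressor screen 1 and 1 sorted stood against 11 and 8 unsorted insertions, and in the PTGR screen 3 and 3 against 21 and 3.

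Foxo1, the main FoxO factor of hepatic glucose production and insulin response, lies at chr3:52268336-52353221 (plus strand). Its activator sorted insertions were 22 and 56, and its unsorted ones 7 and 16. The rates of 12.6 and 38.1 per 10000 (25.4 ± 18.0, SD, n = 2) did not overlap with the background (0.378 ± 0.209, SD, n = 6). For Foxo1 the log2 odds ratio was 5.89 ± 0.28 (adjusted p = 4.99e-85 in Fisher's exact test), and edgeR gave 5.31 (adjusted p = 4.99e-43). Foxo1 had 0 and 0 sorted against 6 and 4 unsorted insertions in the repressor screen, where 0 counts allowed a rate above its background and so set no bound on a fold. In the PTGR screen it had 4 and 1 sorted against 8 and 1 unsorted.

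Foxo4, an X-linked FoxO factor, lies at chrX:101254528-101260873 (plus strand) and had 31 and 64 activator sorted against 17 and 24 unsorted insertions. Its rates of 17.8 and 43.5 per 10000 (30.7 ± 18.2, SD, n = 2) stood above a background of 1.35 ± 0.454 (SD, n = 6), again with no overlap. Its log2 odds ratio was 4.44 ± 0.19 (adjusted p = 2.84e-77 in Fisher's exact test) and the edgeR log2 fold change 4.79 (adjusted p = 1.95e-35). Foxo4 was also the member called in the repressor screen, described below. In the PTGR screen it had 5 and 9 sorted against 31 and 6 unsorted insertions.

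Foxj2 and Foxj3 are related forkhead proteins known as transcriptional activators, and the third measured FoxJ member is Foxj1, the master factor of motile cilia. Foxj2 (chr6:122819914-122845366, plus strand) had the most sorted insertions of any member, 195 and 284, against 71 and 129 unsorted. Its rates were 112 and 193 per 10000 (153 ± 57.3, SD, n = 2), and the background was 4.51 ± 0.901 (SD, n = 6). Neither sorted library came near the unsorted range of 3.79 to 6.21. At Foxj2 the log2 odds ratio was 5.03 ± 0.09, and edgeR gave 4.88 (adjusted p = 9.69e-06). Repressor sorted libraries held 3 and 2 Foxj2 insertions against 72 and 67 unsorted, and PTGR sorted libraries 17 and 26 against 112 and 22.

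Foxj3 (chr4:119537004-119629119, plus strand), known from spermatogenesis and muscle, had 10 and 21 activator sorted against 4 and 7 unsorted insertions. Its rates of 5.75 and 14.3 per 10000 (10.0 ± 6.03, SD, n = 2) stood above a background of 0.341 ± 0.207 (SD, n = 6), without overlap. The log2 odds ratio was 5.04 ± 0.37 (adjusted p = 4.35e-29 in Fisher's exact test), and edgeR gave 4.98 (adjusted p = 5.08e-19). Repressor sorted libraries held 0 and 0 against 3 and 4 unsorted insertions, and PTGR libraries 2 and 1 against 8 and 4. Foxj1 had 0 and 1 activator sorted insertions and 17 in the background, too few to assess.

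Foxn1, whose loss leaves mice hairless and without a thymus, lies at chr11:78357577-78386558 (minus strand). It had 64 and 83 activator sorted insertions against 17 and 16 unsorted. The rates, 36.8 and 56.4 per 10000 (46.6 ± 13.9, SD, n = 2), exceeded the background of 0.615 ± 0.273 (SD, n = 6) in both libraries. Its log2 odds ratio of 6.11 ± 0.21 was the largest of the members (Fisher's exact test, adjusted p = 1.8e-165), with 5.71 by edgeR (adjusted p = 1.34e-32). Repressor sorted libraries held 0 and 0 against 13 and 9 unsorted, and PTGR sorted libraries 3 and 0 against 12 and 1.

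Foxn4, a factor of retinal amacrine and horizontal cell formation, lies at chr5:114254164-114273807 (minus strand) and had the fewest insertions of the 8, 5 and 13 sorted against 10 and 10 unsorted. Its rates of 2.87 and 8.84 per 10000 (5.86 ± 4.22, SD, n = 2) were above the background of 0.489 ± 0.112 (SD, n = 6), without overlap. The log2 odds ratio was 3.46 ± 0.39 (adjusted p = 7.84e-11 in Fisher's exact test), and edgeR gave 3.36 (adjusted p = 8.37e-07). Without sorted replicate 2 the log2 odds ratio was 2.50 ± 0.68 and Foxn4 was no longer called. In the repressor screen it had 0 and 0 sorted against 10 and 6 unsorted insertions, and in the PTGR screen 4 and 2 against 14 and 2.

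**Figure D2:**
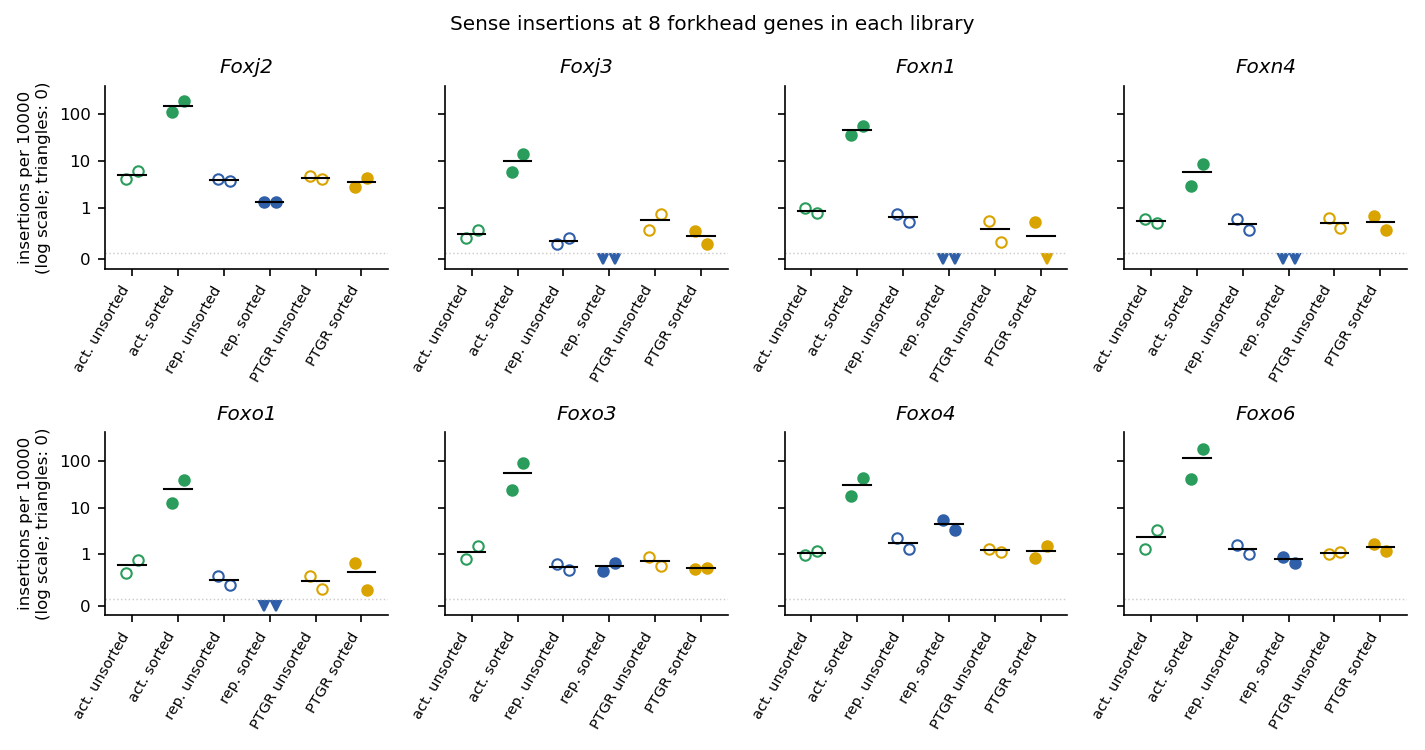
Sense insertions per 10000 insertions of the library (y axis, log scale) at the 8 forkhead genes called in the activator screen, for the 2 replicates of each unsorted (open) and sorted (filled) group of the activator, repressor and PTGR screens. Triangles mark a count of 0 and black lines the mean of the replicates. The activator sorted points stand above all others for each gene, and repressor sorted points of Foxo4 stand above its unsorted ones.

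Both sorted replicates showed each of these enrichments, but not to the same extent. Per replicate, the log2 odds ratio of Foxo6 was 4.64 ± 0.20 and 6.81 ± 0.14, and that of Foxo3 4.78 ± 0.27 and 6.68 ± 0.20. Foxn1 differed less, with 5.79 ± 0.25 and 6.41 ± 0.24. The FoxO genes together held 0.948% of sorted replicate 1 and 3.51% of replicate 2, Foxj2 and Foxj3 1.18% and 2.07%, and Foxn1 and Foxn4 0.397% and 0.653%. Some sorted positions were also listed in the unsorted library with the same number, up to 48 of 267 for Foxo6 in replicate 2, and 39 of 284 for Foxj2. With positions shared between sorted and unsorted libraries of the screen left out, an alternative chosen after seeing the data, all 8 were still called.

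Direction was also counted at the same loci. The genes were called on their sorted sense counts, so high sense shares in sorted cells follow in part from the call and are a description. A cassette inserted against the gene cannot splice into its exons, and unsorted libraries held both directions at many members. In the activator sorted libraries, Foxj2 insertions were 98.0% (94.9 to 99.2%) and 98.6% (96.5 to 99.5%) in sense, against 51.8% and 60.3% in the unsorted libraries of the screen. Foxn1 had 64 and 83 sense and 0 reversed insertions in sorted cells, and 54.8% and 59.3% in sense in unsorted cells. For Foxo4 the shares were 96.9% and 100% in sorted and 47.2% and 53.3% in unsorted cells.

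Foxo3 and Foxo1 differed less by direction within the activator screen, where their unsorted insertions were also mostly in sense. In the repressor unsorted libraries Foxo3 had 52.4% and 47.1% in sense, and in the PTGR unsorted libraries 72.4% and 3 sense against 7 reversed insertions. Foxo1 had 6 sense and 6 reversed insertions in repressor unsorted replicate 1. Foxo3 had 100% in sense in both sorted libraries and 93.3% (70.2 to 98.8%) and 88.6% (74.0 to 95.5%) in the unsorted libraries of the screen. The intervals of the sorted and unsorted shares overlapped there. Foxo6 had 93.4% and 99.6% in sorted and 50.0% and 74.2% in unsorted cells.

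**Figure D3:**
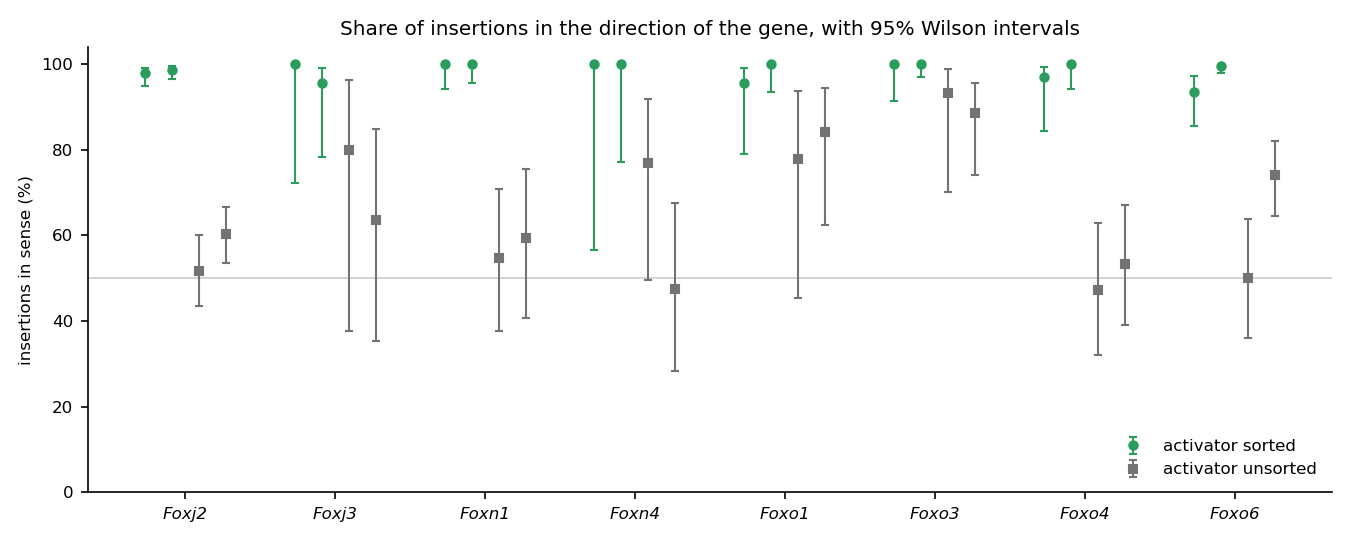
Share of insertions in the direction of the gene (y axis, percent, sense over sense and reversed) at the 8 genes in the activator sorted (green circles) and unsorted (grey squares) libraries, 1 point per library with 95% Wilson intervals. Sorted shares are at least 93.4%. The intervals of sorted and unsorted libraries overlap at Foxo1, Foxo3, Foxj3 and Foxn4.

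When the strand was reversed before the assignment, 85 of all 20409 genes were called in the activator screen, which was 3.14% of the 2706 tested. Of the 31 members, 1 was called. This was Foxm1, a factor of G2/M gene expression, which had 0 and 1 sense insertions in sorted cells but 38 and 161 reversed ones. All 199 reversed positions were assigned in sense to Tead4, a TEA domain factor, at a median of 5309 bp from its exon and 108359 bp from that of Foxm1. With a maximum distance of 50 kb Foxm1 was no longer called. No member was called for reversed insertions in the repressor screen (5.61% of all genes tested) or in the PTGR screen (0.5%).

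The neighbours of the 8 genes were checked in the same way, since a large count might belong to the region and not to the gene. Of the 16 nearest protein-coding genes, 1 was called in the activator screen. It was Maml3, a Notch coactivator of the mastermind family, which lies 163260 bp to the left of Foxo1 on the opposite strand and had 5 and 9 sorted and 4 background insertions (log2 odds ratio 6.80 ± 0.82). The gene beside Foxj2, the glucose transporter gene Slc2a3, had 4 and 4 sorted against 421 background insertions. Snx12, beside Foxo4, had 0 and 0 against 91.

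The position of the sorted insertions differed between members. Most were intronic at 6 of the 8 genes. At Foxo6, 99.4% (97.9 to 99.8%) of the 338 activator sorted insertions lay in introns of the gene, at Foxo3 95.3% (91.0 to 97.6%) of 170, at Foxo1 92.3% (84.2 to 96.4%) of 78, and at Foxn1 89.1% (83.1 to 93.2%) of 147. The share was 83.3% (60.8 to 94.2%) of 18 at Foxn4 and 58.1% (40.8 to 73.6%) of 31 at Foxj3. Foxj2 and Foxo4 were the opposite, with 94.4% (91.9 to 96.1%) and 86.3% (78.0 to 91.8%) upstream of the gene. Insertions upstream join the tag to the first downstream acceptor, which need not belong to the gene they sit in.

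For Foxo4, the sorted insertions were a median of 34585 bp from the assigned exon and the background ones 127217 bp. The densest 5-kb stretch of sorted insertions overlapped Snx12, centred at -30929 bp from the annotated start of Foxo4, negative being upstream. It held 57.9% of the Foxo4 sorted insertions (55 of 95) and 17.1% of the background ones (24 of 140). At Foxj2 the densest stretch overlapped Slc2a3 at -56174 bp from the Foxj2 start, with 145 of 479 sorted and 88 of 473 background insertions. These stretches were picked by their sorted counts, so the shares are a description.

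At Foxn4, 90.4% (79.4 to 95.8%) of background insertions lay upstream of the gene, and 0 of 18 sorted ones did. At Foxj3 the sorted median distance was 3133 bp and the background median 20989 bp. Foxo6 had nearly equal medians, 3409 and 3209 bp, and so did Foxn1, 1324 and 1438 bp. No test of these distances was made.

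**Figure D4:**
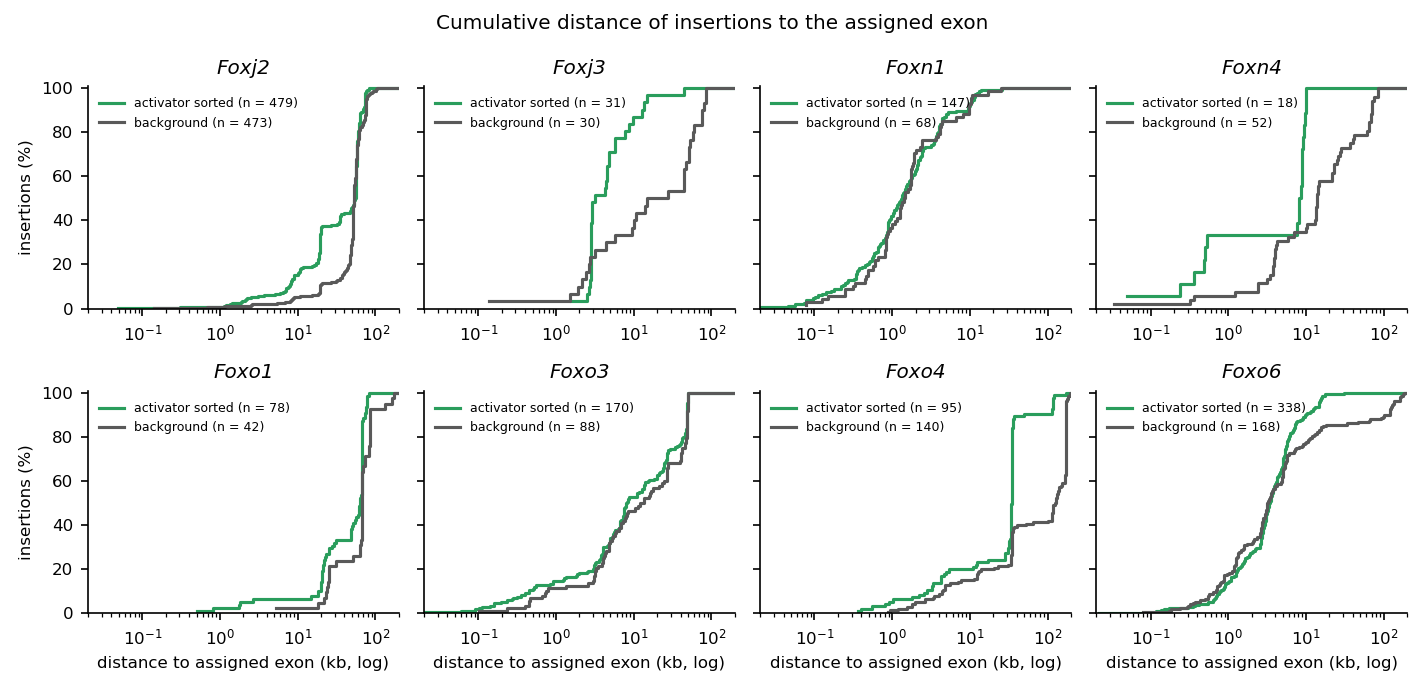
Cumulative share of insertions (y axis, percent) by distance to the assigned exon (x axis, kb, log scale) at the 8 genes, for the activator sorted libraries (green) and the 6 unsorted libraries (grey). The sorted curve lies to the left of the background at Foxo4, Foxj3 and Foxn4, and the 2 curves run close together at Foxn1.

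The assigned exon tells which part of the protein could join the tag, although splicing itself was not measured and exons were those nearest to the insertion. The reading frame of the cassette was not considered, so an assigned fusion need not be in frame. The forkhead domain was placed by aligning the 31 proteins of GENCODE vM21, as the residues aligned with at least 75% of the members of other subfamilies. It spanned residues 161 to 239 of 652 in Foxo1, 160 to 236 of 672 in Foxo3, 105 to 182 of 505 in Foxo4 and 92 to 170 of 559 in Foxo6. The domains of the 4 FoxO proteins were 81.8% to 89.9% identical in pairs.

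In the FoxO genes an intron interrupts the forkhead domain, and nearly all assigned pieces began there. The exons shown above start after residue 207 in Foxo1, 206 in Foxo3, 151 in Foxo4 and 138 in Foxo6, and in each of them 47 residues of the domain lay before the acceptor. All 78 sorted insertions at Foxo1, 338 of 338 at Foxo6, 92 of 95 at Foxo4 and 168 of 170 at Foxo3 were assigned to an exon that starts at this point. So were all 42 background insertions at Foxo1, 168 of 168 at Foxo6, 139 of 140 at Foxo4 and 77 of 88 at Foxo3. In frame, the fusions assigned at Foxo1, Foxo4 and Foxo6 would keep 445, 354 and 421 residues. These hold the end of the forkhead domain and the region after it, where the FoxO transactivation domain is known to lie. With the last 466 residues of Foxo3, the pieces were 38% to 46% identical in pairs, relative to the shorter piece.

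Foxo3 had 2 such exons. Of its 170 sorted insertions, 64 (37.6%) were assigned to the exon that encodes the last 466 residues, and 104 (61.2%) to the last exon of Foxo3-202, which adds 38 residues. In the background these shares were 35.2% and 52.3%. An insertion before the second exon can also be spliced to the first, and these outcomes cannot be told apart in the insertion lists.

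Most assigned FoxJ and FoxN fusions began before the forkhead domain. At Foxj2, 475 of 479 sorted insertions were assigned to exons with no coding sequence before them. Of these, 454 were at the exon shown above and 21 at the next. All 565 residues would follow the tag if such a fusion were in frame. At Foxj3, 27 of 31 were assigned to exons with no coding sequence before them, 25 of them at the exon shown. At Foxn1, 136 of 147 sorted insertions pointed to exons 2 to 5, which start before the domain (53 to exon 4, 43 to exon 2, 30 to exon 5 and 10 to exon 3). Exon 9 of Foxn1, which encodes the last 106 residues after the domain, took 1 of 147 sorted and 12 of 68 background insertions. At Foxn4, exon 3, before which 28 residues are encoded, took 12 of 18 sorted and 2 of 52 background insertions, and exon 2 took 5 of 18 and 50 of 52.

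**Figure D5:**
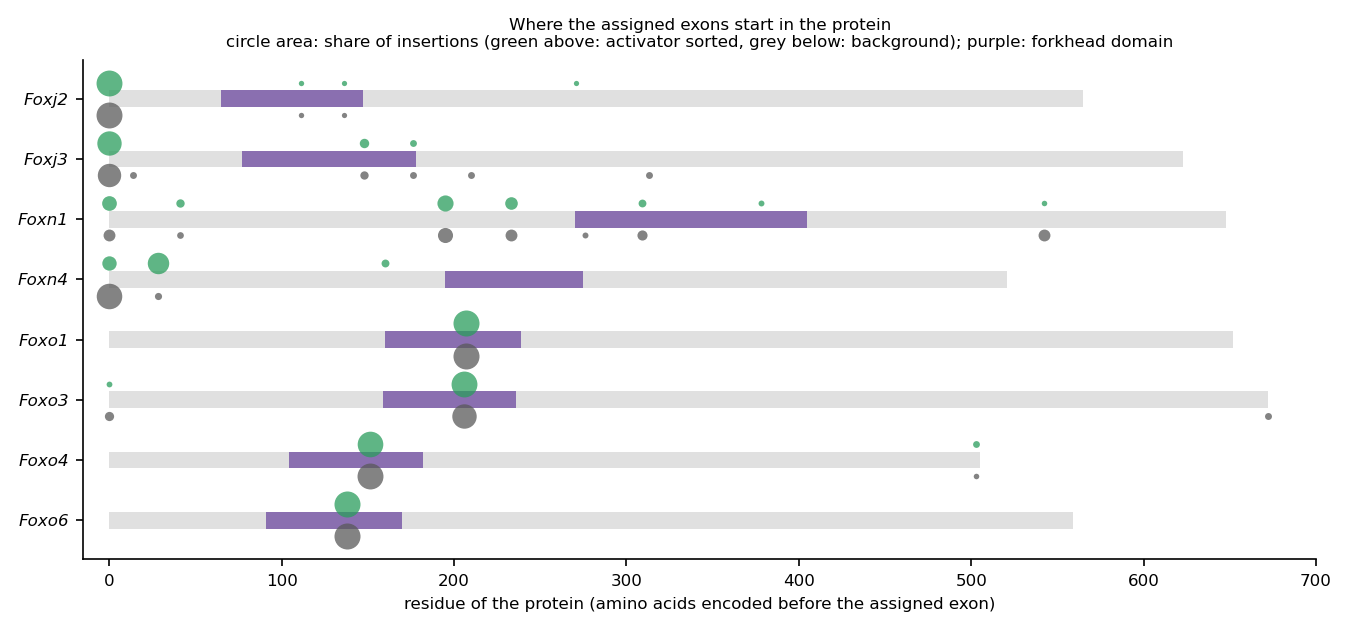
Residue at which the assigned exon starts (x axis, amino acids encoded before it) for the 8 proteins (grey bars, full length, with the forkhead domain in purple). Circle area is the share of the insertions of a gene, with activator sorted above in green and the background below in grey. The largest circles of each FoxO gene sit inside the forkhead domain, and those of each FoxJ and FoxN gene sit before it. Smaller circles lie elsewhere, among them some of Foxo3 and Foxo4 outside the domain.

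The remaining 23 members had 15 activator sorted insertions in all, where the background rate would give 40.7. Each had at most 2, since all members with 3 or more were called, so a low sum follows in part from that choice. The background rate also makes no allowance for sorted insertions taken up by called genes. The 5 members with more than 3 insertions at that rate were Foxm1, Foxn2, Foxn3, Foxp1 and Foxp4. They had to lie below it, and together had 6 against 28.3. Foxn3, a forkhead protein of the DNA damage checkpoint that is known as a repressor, had 0 and 0 sorted against 30 and 45 unsorted insertions, at least 2-fold lower than the background when 3 counts are allowed over both sorted libraries. Its adjusted p in edgeR was 0.0701, and 0.352 with the replicate number as a block. Foxn2, its closest relative, had 0 and 1 against 36 and 46 (adjusted p = 0.304 in edgeR). No member was lower in sorted cells at an adjusted p below 0.05 in edgeR (0.1% of all genes fitted). At an unadjusted p below 0.05, 2 of the 19 members fitted were lower, and so were 6.81% of all genes.

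FoxP proteins are known to form dimers and to repress with corepressors such as Ctbp1. No FoxP member passed the test for fewer insertions in sorted cells. Their summed share of activator sorted replicate 1, 0.0287% (0.0123 to 0.0673%), overlapped with the 0.0393% and 0.039% of the unsorted libraries. Their share of sorted replicate 2, 0% (0 to 0.0261%), lay below the intervals of both unsorted libraries (0.0311 to 0.0498% and 0.0314 to 0.0485%). This was not particular to FoxP. All 23 members not called held 0.0402% (0.0195 to 0.083%) and 0.0544% (0.0276 to 0.107%) of the sorted libraries. In the unsorted libraries they held 0.125% (0.11 to 0.143%) and 0.131% (0.117 to 0.148%). As above, members not called had at most 2 sorted insertions each, so low shares follow in part from that choice. Foxp1 had 2 and 0 activator sorted against 28 and 29 unsorted insertions, and 1 and 0 against 32 and 34 in the repressor screen. Foxp4 had 2 and 0 against 31 and 37, and 1 and 0 against 33 and 46. Foxp3, the factor of regulatory T cells, had 0 and 0 in activator sorted and 1 and 1 in repressor sorted cells, with 82 in the background. None of the 4 FoxP members was called in any screen.

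In the repressor screen, 1 of the 31 members was called, Foxo4, and 192 of all 20409 genes. Among those with at least 3 sorted insertions, this was 1 of 4 members against 8.18% of all genes tested (192 of 2346). Foxo4 had 12 and 5 sorted insertions, with 39 and 23 in the unsorted libraries of the screen. Its rates of 5.39 and 3.29 per 10000 (4.34 ± 1.49, SD, n = 2) lay above the unsorted range of 0.969 to 2.24, without overlap. The log2 odds ratio was 1.73 ± 0.37 (adjusted p = 0.000573 in Fisher's exact test), and edgeR gave 1.66 (adjusted p = 0.0208, with 2.58% of all genes called). With the replicate number as a block the edgeR adjusted p was 0.0623, and 2.32% of all genes were called. DESeq2 called Foxo4 and 2.72% of all genes.

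This call was less stable than those in the activator screen. Against the unsorted libraries of the screen alone, 1 of which (replicate 1) had the highest Foxo4 rate of all 6, the log2 odds ratio was 1.36 ± 0.40 and Foxo4 was not called, and without sorted replicate 1 it was 1.26 ± 0.66. The repressor insertions differed in place from the activator ones: their median distance was 2239 bp, and 41.2% (21.6 to 64.0%) were upstream of the gene. In sense were 12 of 13 and 5 of 5 of them. Exon 2 took 16 of the 17, the same exon as in the activator screen.

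Besides Foxo4, 3 members had at least 3 repressor sorted insertions and none of them was enriched: Foxj2 had a log2 odds ratio of -1.79 ± 0.65, Foxo6 of -1.04 ± 0.84 and Foxm1, with 2 and 1 sorted against 22 and 16 unsorted insertions, of -0.74 ± 0.84. A further 11 members had 1 or 2 sorted insertions and 16 had 0. The 30 members not called had 27 insertions in all, where the background rate would give 81.2, and 9 of them had more than 3 insertions at that rate. Here too the rate makes no allowance for sorted insertions taken up by called genes, so the sums are a description. In edgeR, which fitted 16 members, none was lower at an adjusted p below 0.05 (1.14% of all genes). At an unadjusted p below 0.05, 3 members and 11.1% of all genes were lower.

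In the PTGR screen no member was called by Fisher's exact test, against 0.666% of all genes tested (62 of 9303). Of the 31 members, 22 had at least 3 sorted insertions, and 3 had an unadjusted p below 0.05, against 10.6% of all genes tested. The 22 log2 odds ratios ran from -1.41 to 2.77, with a median of -0.15 (0.14 over all genes tested), and 9 of the 22 were above 0. In all, 256 sorted insertions fell on the members and the background rate would give 276. By edgeR none of the 17 members fitted changed, and none had an unadjusted p below 0.05, where 0.342% of all genes were higher after adjustment (0.495% with the replicate block) and 0% lower. Unadjusted, 1.85% of all genes were higher and 1.61% lower. DESeq2 called no member.

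The 3 members with the smallest p were rarely hit genes. Foxp2, the speech- and song-related FoxP factor, had 5 and 0 sorted and 7 background insertions (log2 odds ratio 2.61 ± 0.84, Fisher's exact test, adjusted p = 0.171), all 5 from 1 library. Foxf1, a factor of lung and gut mesenchyme, had 0 and 4 against 5 (2.77 ± 0.97, adjusted p = 0.233). Foxa1, a pioneer factor of endoderm, had 1 and 2 against 5 (2.36 ± 1.05, adjusted p = 0.428). The members with the most PTGR sorted insertions were close to the background: Foxj2 at -0.36 ± 0.23, Foxp4 with 16 and 14 sorted against 54 and 9 unsorted at 0.29 ± 0.28, and Foxp1 with 17 and 10 against 52 and 7 at 0.34 ± 0.30.

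Whether the enrichment itself differed between screens was tested with edgeR over all 12 libraries, as the change from unsorted to sorted in one screen minus that in another. The activator enrichment exceeded that of the repressor screen for 8 of 24 members fitted, the 8 called above, against 0.57% of all 12809 genes in that direction. The log2 difference was 6.15 for Foxj2 (adjusted p = 9.28e-25), 5.96 for Foxo6 (adjusted p = 1.92e-15) and 5.27 for Foxo3 (adjusted p = 6.14e-07). It was smallest for Foxo4, at 3.15 (adjusted p = 1.2e-06). For Foxn1, Foxo1, Foxj3 and Foxn4, which had 0 repressor sorted insertions, the fitted size depends on how zeros are handled, and the adjusted p was 1.29e-10, 0.000234, 0.0225 and 0.0235. Foxj3 and Foxn4 did not pass with the replicate number as a block (adjusted p = 0.0579 and 0.0559 in edgeR). With 1 library left out at a time, Foxj3 still passed only when that library was activator sorted replicate 1 or activator unsorted replicate 2, and Foxn4 only when it was activator sorted replicate 1, activator unsorted replicate 1 or repressor unsorted replicate 2. With a maximum distance of 50 kb, Foxo1, Foxj3 and Foxn4 did not pass. No member was lower in the activator screen, against 0.882% of all genes.

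Against the PTGR screen, the activator enrichment was larger for 7 of the 24 members (0.586% of all genes). The log2 difference was 4.95 for Foxj2 (adjusted p = 5.25e-28), 5.99 for Foxo3 (adjusted p = 1.95e-14), 4.86 for Foxo6 (adjusted p = 2.46e-14) and 4.66 for Foxo4 (adjusted p = 2.89e-12). Foxn4 did not pass (3.27, adjusted p = 0.0546), and no member was lower, against 0.125% of all genes. Both tests use the same activator libraries. Without PTGR unsorted replicate 1, Foxj2, Foxj3, Foxo4 and Foxo6 remained of the 7. Between the repressor and PTGR screens, no member differed in edgeR at an adjusted p below 0.05, against 0.929% of all genes higher and 0.453% lower in the repressor screen; 3 members, Foxo4, Foxp1 and Foxp4, had an unadjusted p below 0.05, as did 10.2% of all genes.

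A list of 41 forkhead partners and regulators was described beside the members, with no test of the list. It was written with results of these data known, so its calls are no separate result. In the activator screen 15 of them were tested and 2 called, against 4.64% of all genes tested. Both are histone acetyltransferases that FoxO proteins use as coactivators. Ep300 had 149 and 240 sorted insertions (log2 odds ratio 5.43 ± 0.11) and Crebbp 17 and 30 (3.03 ± 0.24), with 290 and 184 in the background. In the repressor screen 15 were tested and 1 called, against 8.18% of all genes tested. It was Lin54, a DNA-binding subunit of the MuvB complex with which Foxm1 acts, with 12 and 2 sorted insertions (2.07 ± 0.41). In the PTGR screen 31 were tested and 1 called (0.666% of all genes tested), Ep300 again, with 107 and 70 (2.39 ± 0.14). The upstream kinases and 14-3-3 proteins of FoxO signalling on the list, such as Akt1, Sgk1, Pdpk1 and Ywhaz, were not called in any screen. Some had fewer than 3 sorted insertions in a screen and were not tested there. Examples are Akt1 in the activator (1 and 1) and repressor (0 and 1) screens, and Pdpk1 in the activator screen (0 and 0).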

How the data were processed

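Insertion sites were mapped by the authors with inverse PCR and sequencing. According to the study's methods and processing notes, reads were trimmed (Trim Galore 0.6.0), aligned to mm10 with Bowtie2, and filtered for duplicates and mapping quality (SAMtools 1.9), and each insertion was assigned to the closest downstream exon, first exons excepted, of a protein-coding transcript in GENCODE. The deposited lists give positions, some on more than 1 line (every position in both repressor unsorted lists and 12.7% in PTGR sorted replicate 2), and each position was counted once. The 3 deposited tables hold counts per gene summed by the authors, used here for gene names and as a check. The sorted counts were equal for all 31 members in the activator and repressor screens and for 23 in the PTGR screen, where the deposited total was 128486 against 119540 here. Their log2 odds ratios and adjusted p-values were not used. The lists hold no reads per insertion, so read depth per site was not analysed here. For the activator and repressor screens, the methods took unsorted cells from the transduced population that was then sorted, so equal replicate numbers were treated as pairs in fits with the replicate number as a block.

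Unique positions within 200 kb were counted per gene and library. Fisher's exact test, edgeR 4.0.16 (TMM, at least 10 insertions) and DESeq2 1.42.0 were run over all genes in R 4.3.3 and Python 3.11.15, and tested on simulated data. Proteins were aligned with Biopython 1.88, and locations are from GENCODE vM21. Members, lists and tests were chosen with earlier results of these data known. Full values were given to called members (up to 8), to up to 3 uncalled members per screen with the smallest adjusted p or the most sorted insertions, and to the 3 with most background. Alternatives covered background, distance, counting, thresholds, tests and left-out replicates.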

Additional observations from a re-analysis of the deposited data

Results flagged for a closer look

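Enrichment differed between screens in edgeR's test of the difference. Against the repressor screen, the activator enrichment was larger for Foxj2 (adjusted p = 9.28e-25), Foxo6 (1.92e-15), Foxn1 (1.29e-10), Foxo3 (6.14e-07), Foxo4 (1.2e-06), Foxo1 (0.000234), Foxj3 (0.0225) and Foxn4 (0.0235). Foxj3 and Foxn4 did not pass with the replicate block (adjusted p = 0.0579 and 0.0559 in edgeR) or without any 1 of several libraries. Against the PTGR screen it was larger for Foxj2 (adjusted p = 5.25e-28 in edgeR), Foxo3 (1.95e-14), Foxo6 (2.46e-14), Foxo4 (2.89e-12), Foxn1 (4.38e-09), Foxj3 (4.68e-05) and Foxo1 (0.000396).

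Over the 6 unsorted libraries, 6 of the 31 members had 1 library far above the others, among them Foxi1, which had 1 insertion in all and so had to be marked. The cutoff marks about 1 in 20 sets of normal values with equal spread. Rates from small counts at unequal depths are not such values, so the number marked is not read against that rate. Foxo6 had a rate of 3.32 per 10000 in activator unsorted replicate 2 (69 insertions), against 1.02 to 1.61 elsewhere, and 48 of the 267 Foxo6 positions in activator sorted replicate 2 were also listed in that library. Foxo1 reached 0.771 in the same library, with 0.399 as the next highest. Foxo4 reached 2.24 in repressor unsorted replicate 1 (39 insertions), against 0.969 to 1.33 elsewhere. Foxk1 and Foxj3 stood out in PTGR unsorted replicate 2, the shallowest unsorted library, with 1.85 (10 insertions) and 0.74 (4 insertions). Foxi1 had its single insertion, a rate of 0.057, in activator unsorted replicate 1.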

How the results depend on the processing

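The 8 activator calls stood at 8 under every alternative except without 1 library: leaving out 1 replicate each gave 7 to 8, with Foxn4 lost without sorted replicate 2. The repressor call of Foxo4 fell to 0 members against the unsorted libraries of the screen alone, with at least 1 sorted insertion required, with every listed line counted, with shared positions left out (chosen after seeing the data), in edgeR with library size only and in edgeR without a filter; leaving out 1 replicate each gave 0 to 1, with 0 without sorted replicate 1. The reversed call of Foxm1 fell to 0 at 50 kb and at 20 kb. The PTGR count stayed at 0. The activator enrichment exceeded that of the repressor screen for 5 members at 50 kb and for 6 to 8 when 1 replicate each was left out. Against the PTGR screen, leaving out 1 replicate each gave 4 to 8 members, the lowest without PTGR unsorted replicate 1. Over all genes, edgeR called 198 in the repressor screen and 74 without a filter. The cause of these losses was not tested. The log2 odds ratio of Foxo4 in the repressor screen ran from 1.26 to 2.68 over its 10 alternatives, and of 90 alternatives of single log2 odds ratios none changed sign and 5 ended a call. With the replicate number as a block, edgeR called 8 members as activators, 0 as repressors and 0 for PTGR, and the activator enrichment exceeded that of the repressor screen for 6, without Foxj3 and Foxn4. Deviations of same-numbered libraries correlated at 0.076, -0.016 and 0.29 across genes in the activator, repressor and PTGR screens. In activator sorted replicate 2, positions recurred more in the unsorted library of the same number (48 against 2 for Foxo6 and 39 against 4 for Foxj2). That library also held more Foxo6 insertions than the other (69 against 23). In sorted replicate 1 the same-numbered library held more for Foxj2 (13 against 5), Foxn1, Foxo1 and Foxo3. It did not for Foxo6 (6 against 7), Foxo4 (0 against 2), Foxn4 (0 against 1) or Foxj3 (0 against 0). Depth limits the repressor and activator results for members with few background insertions, where 0 sorted insertions set no bound.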
